A study of Mus musculus with 6 samples.

Results

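Integrin alpha subunits were described by 10 genes (Itga1 to Itga9 and Itgav) of the 18193 genes that a probe set of the array names alone. Each gene was read at its brightest probe set over the 6 arrays, and its other probe sets served as a check. All 10 had such a probe set, 28 probe sets in all, of which 26 passed the filter (mean intensity over 4.94) and were tested. That cut-off lies under the signal of 16 taken below as the floor, so some of the 26 were at the floor. Those 26 covered 9 genes, and Itga8 was left out because its 2 probe sets lay among the dimmest of the array.

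The 6 arrays measured RNA of endothelial cells, which line vessels, isolated from mouse lung and held at 0.5% oxygen for 16 h. The knockout group (3 arrays) came from HIF-2a floxed/floxed mice carrying VE-Cadherin-Cre, in which Cre is driven by an endothelial promoter and removes HIF-2α (HIF-2a in the labels), an oxygen-regulated transcription factor encoded by Epas1. The control group (3 arrays) is described as VE-Cadherin-Cre HIF-2a floxed/WT in the sample descriptions, as floxed on both copies in the series design and as wild type in the genotype field, so Cre and a floxed allele may be present in the controls too. All arrays were under low oxygen, and the cells had been selected repeatedly for endothelial surface markers. No label states that the arrays within a group are separate cultures or separate animals, and every p-value therefore reflects only how much these arrays vary, which may be technical.

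Integrins are cell surface receptors made of an alpha and a beta subunit, which bind the extracellular matrix or other cells outside the cell and link to actin through talin and kindlin inside it. The alpha subunit largely sets what is bound. Subunits α3, α6 and α7 are laminin receptors, α1 and α2 collagen receptors, α5, α8 and αv receptors of RGD-containing ligands such as fibronectin, nephronectin and vitronectin, and α4 and α9 receptors of VCAM-1, fibronectin and, for α9, tenascin-C and VEGF-C. In mice, endothelial α5 and αv act in vessel growth, and α9 in the formation of lymphatic valves.

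Start-site windows were read from RefSeq (GRCm38.p6), 250 bases before to 50 bases after the start, for 8 of the 10 genes. Itga6 and Itga7 had no entry. The 5-base cores of the DNA site bound by HIF dimers, ACGTG and GCGTG, were searched on both strands, where the letters CACGTG would count on each strand. At least 1 core was found in 43.8% of the 32851 windows searched and in 3 of the 9 windows of these genes (Itga2, Itga4 and Itga9). The 32851 leave out 1 chromosome and any window not of full length. Shown here are the window of Itga9, the subunit with the largest called difference, the first window of Itga3, whose values were higher in knockout arrays, and the window of Itga5, whose groups overlapped. Capitals mark the cores.
Itga9, chr9:118711442-118711741, plus strand: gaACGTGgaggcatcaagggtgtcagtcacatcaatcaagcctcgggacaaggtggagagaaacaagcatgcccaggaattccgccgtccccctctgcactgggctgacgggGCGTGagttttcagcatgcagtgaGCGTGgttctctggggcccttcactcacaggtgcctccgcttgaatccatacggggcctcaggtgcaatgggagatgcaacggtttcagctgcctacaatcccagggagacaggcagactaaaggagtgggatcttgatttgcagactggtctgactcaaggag
Itga3, chr11:95076665-95076964, minus strand: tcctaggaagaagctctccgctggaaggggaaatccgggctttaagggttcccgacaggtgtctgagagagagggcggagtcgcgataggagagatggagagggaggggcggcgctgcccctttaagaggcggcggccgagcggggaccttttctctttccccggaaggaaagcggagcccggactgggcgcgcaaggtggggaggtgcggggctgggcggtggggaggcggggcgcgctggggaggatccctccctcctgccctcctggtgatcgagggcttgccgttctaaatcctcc
Itga5, chr15:103366742-103367041, minus strand: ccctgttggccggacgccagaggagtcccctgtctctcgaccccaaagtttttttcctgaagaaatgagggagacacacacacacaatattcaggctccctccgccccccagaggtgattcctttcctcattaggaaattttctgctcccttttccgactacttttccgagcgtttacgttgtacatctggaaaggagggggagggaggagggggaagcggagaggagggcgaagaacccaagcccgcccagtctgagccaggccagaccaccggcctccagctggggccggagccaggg
The Itga9 window held 3 cores on the plus strand, 1 ACGTG and 2 GCGTG, and 8.93% of the windows searched held 3 or more. It belongs to a transcript that starts 104983 bases inside the gene as annotated, and the window at the annotated gene start was not analysed here. The windows of Itga3 and Itga5 held none of these letters, which says nothing about binding elsewhere.

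The knockout label could not be checked at its target. Epas1 had an intensity of 8920, 9397 and 9859 in the knockout arrays, against 9611, 9590 and 9444 in the control arrays. A second, dim probe set read 21.7, 18.0 and 11.5 against 11.4, 10.3 and 11.4. It is not known whether these probes lie in the deleted exon, so the values do not check the deletion. No probe set of Epas1, Hif1a or Arnt passed. The largest log2 difference was that of a Hif1a probe set, -1.55 without overlap (limma adjusted p = 0.108 over probe sets). Of 13 endothelial markers, 12 had an intensity over 16 in all arrays, a signal taken here as the floor below which probe sets could not be told from background. Their summed intensity ran from 112900 to 125200 in knockout arrays and from 140600 to 151100 in control arrays, and the groups did not overlap. Of the 13 endothelial markers 5 fell (Pecam1, Tek, Tie1, Flt1 and Erg) and 8 did not pass, by limma, against 5.07% of all genes lower. Many of all genes tested lay at the floor, so that percentage is not a matched baseline for these markers. Among the 8, Cdh5, Kdr and Cldn5 were lower without overlap. Robo4 was higher without overlap (limma adjusted p = 0.0613), and Vwf, Emcn, Eng and Esam overlapped between groups. The markers therefore did not all move one way. What part the lower marker sum has in the values that follow was not tested. Of 8 measured leukocyte markers, 6 were at the floor in all arrays, Ptprc, Csf1r and Tyrobp among them. The leukocyte sum ran from 789.9 to 1215 in knockout arrays and from 3722 to 4285 in control arrays and was carried by Cd68, which endothelial cells can also express. Of 11 fibroblast and mural markers, 10 were at the floor, leaving Tagln and a sum of 119.7 to 256.3 in knockout arrays and 81.78 to 125.4 in control arrays, and all 7 epithelial and all 3 mesothelial markers were as well. Arrays within a group differed from each other by 0.137 to 0.681 (SD over genes of the log2 difference), with knockout 3 and control 2 apart from their groups.

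Across the 9 tested alpha subunits, Itga9 and Itga6 fell in the knockout arrays and 7 did not pass the test. The test was limma on log2(intensity + 16), knockout minus control, with Benjamini-Hochberg adjustment over 12277 genes and a threshold of 0.05. Of all 12277 genes 13.7% passed it, 5.07% lower and 8.63% higher. The alpha subunits had 2 of 9, both lower, and with 9 genes chosen as a family no more is read from that count. No alpha subunit passed on the higher side (0 called, 1 at an unadjusted p under 0.05, Itga3). The median log2 difference was -0.26 over the 9 subunits and 0.0071 over all genes tested. Knockout and control arrays were fully separated for 4 of the 9 (Itga2, Itga3, Itga6 and Itga9), and for 36.2% of all genes. Of the 9 subunits, 8 were over 16 in all arrays, whereas many of all genes tested lay at the floor. With a stricter filter on dim probe sets, the median over all genes was 0.0509 and 1885 of 9449 genes passed. The percentages and the median over all genes are therefore not a matched baseline for the subunits.

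**Figure D1:**
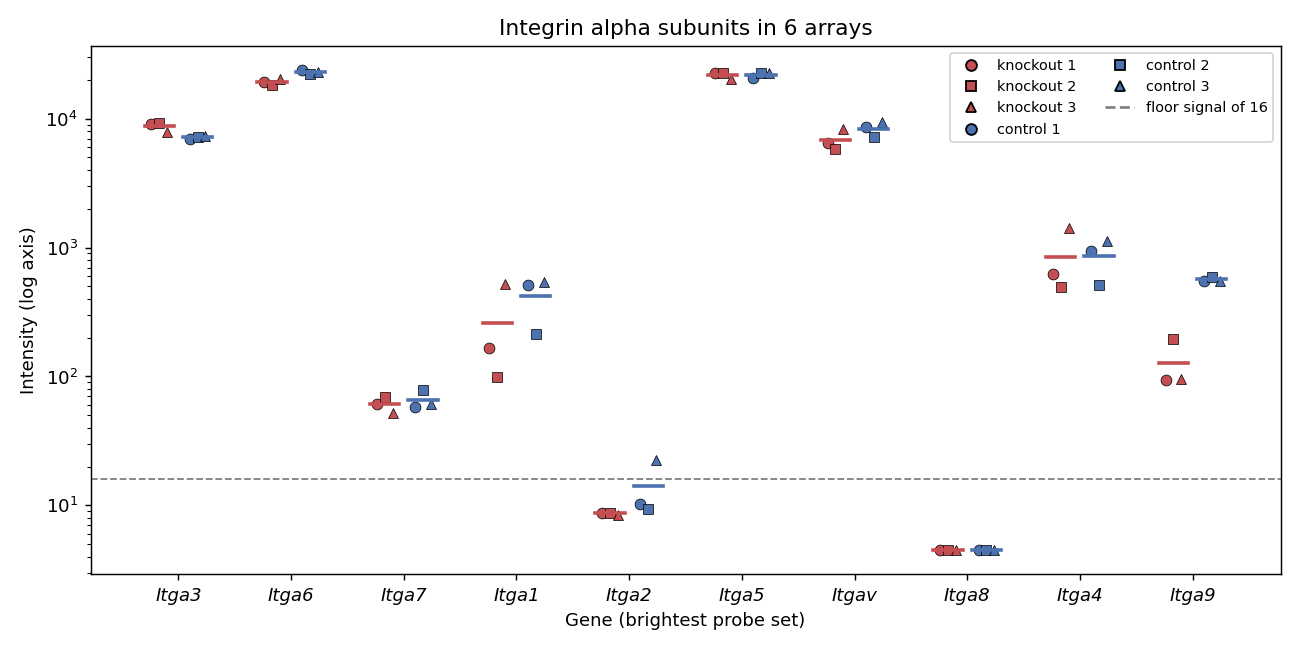
Intensity (log axis) of each alpha subunit at its brightest probe set, with knockout arrays left of control arrays, a symbol per array number and a bar at each group mean. Itga9 lies between 94.4 and 194 in knockout arrays and between 551 and 596 in control arrays, and Itga8 lies under the floor signal of 16 (dashed).

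Among the laminin receptors, Itga6 fell and Itga3 pointed the other way without passing. Itga6, which pairs with β1 or β4, had an intensity of 19163, 18188 and 20436 in knockout arrays 1 to 3, against 23880, 22237 and 23210 in control arrays 1 to 3. Every knockout array was below every control array. The log2 difference was -0.26 ± 0.05 (SE, limma adjusted p = 0.0451), a ratio of group means of 0.834. The second Itga6 probe set read 13584, 13374 and 14470 in knockout arrays and 17411, 18639 and 18358 in control arrays, again without overlap. Its log2 difference was -0.39 ± 0.04 (limma adjusted p = 0.0179 over 22557 probe sets, of which 9.55% passed).

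The Itga6 difference is small and its call at the brightest probe set depended on the processing. That call held without knockout 3 but ended without any other single array (limma adjusted p from 0.0758 to 0.162), with log2 differences of -0.31 to -0.22 over all 6. It also ended with quantile normalization (limma adjusted p = 0.0638) and with the p-values adjusted over probe sets (0.0547). The log2 difference was -0.14 with the level of spike-in controls, described below with the arrays, as a covariate (limma adjusted p = 0.136).

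Itga3, which pairs with β1, had an intensity of 9125, 9175 and 7816 in knockout arrays, against 6957, 7251 and 7326 in control arrays. The groups did not overlap, and knockout 3 was the knockout array closest to the controls. The log2 difference was 0.27 ± 0.07 (limma adjusted p = 0.0787). It passed without knockout 3 (log2 difference 0.35, limma adjusted p = 0.015). The other Itga3 probe sets had log2 differences of 0.30 and 0.53, each with overlapping groups and above the threshold (over all probe sets, limma adjusted p = 0.156 for the first and 0.221 for the second).

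As a description within each array, the log2 signal of Itga3 minus that of Itga6 was -1.07, -0.99 and -1.38 in knockout arrays and -1.78, -1.61 and -1.66 in control arrays. This pair was chosen after its values were seen, and the difference shows unequal change of the probe sets, not amounts of the subunits. Itga7, a laminin receptor best known from muscle, was dim at 61.1, 69.7 and 52.5 in knockout arrays and 58.3, 78.8 and 61.2 in control arrays. The groups overlapped, and the 95% interval of its log2 difference ran from -0.44 to 0.26.

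**Figure D2:**
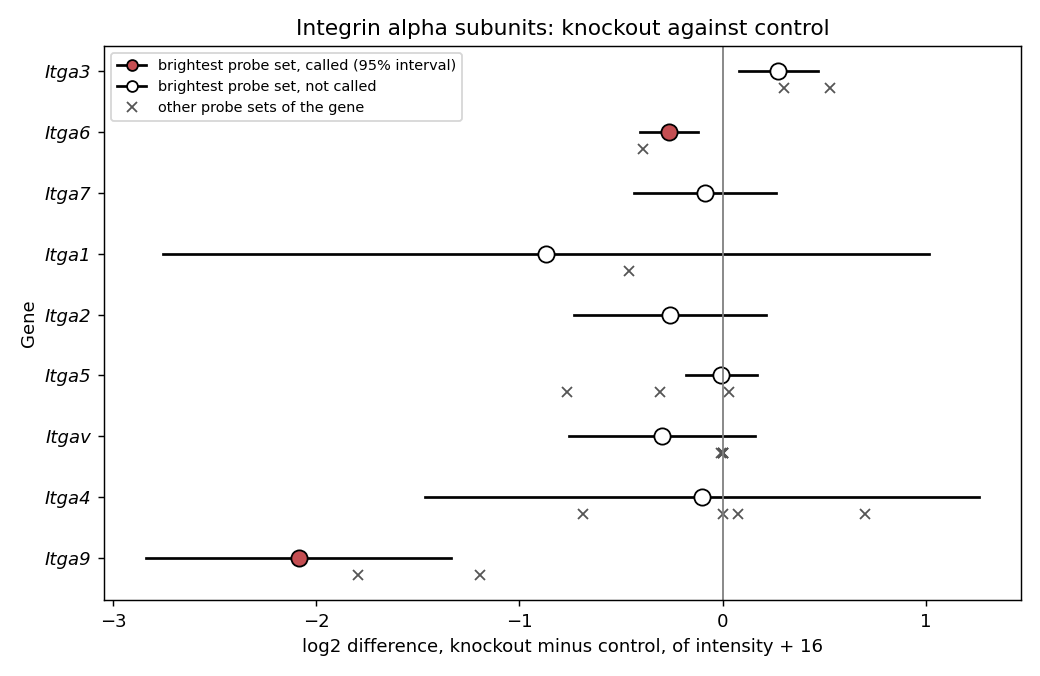
log2 difference, knockout minus control, of intensity + 16 for the 9 tested subunits at their brightest probe set, with 95% intervals, filled where called, and the other probe sets of each gene as crosses. Itga9 (-2.09) and Itga6 (-0.26) are called, and the probe sets of Itga4 and Itga5 spread over different values.

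Neither collagen receptor subunit passed, and Itga2 lay near the floor. Itga1, a receptor with a preference for type IV collagen, had an intensity of 165, 98.7 and 520 in knockout arrays, against 510, 215 and 543 in control arrays. Knockout 3 lay with controls 1 and 3, and control 2 lay nearer to knockout 1. This gave a log2 difference of -0.87 ± 0.72 with a 95% interval of -2.75 to 1.01 (limma adjusted p = 0.466). The second Itga1 probe set, whose knockout 2 value was the lowest at 162, had a log2 difference of -0.46 (limma adjusted p = 0.342 over probe sets). The α2 subunit binds fibrillar collagen and is part of a platelet collagen receptor. Itga2 read 8.79, 8.80 and 8.40 in knockout arrays and 10.3, 9.38 and 22.7 in control arrays. It was under the floor of 16 in every array but control 3.

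Among the RGD receptors, Itga5 and Itgav were bright and Itga8 was at the floor. Itga5, the fibronectin receptor subunit, had an intensity of 22809, 22468 and 20376 in knockout arrays, against 20528, 22784 and 22614 in control arrays. The groups overlapped. The log2 difference was -0.0061 ± 0.07 with a 95% interval of -0.18 to 0.17 (limma adjusted p = 0.952). Its other probe sets did not all follow it. The dimmest read 24.0, 19.5 and 21.7 in knockout arrays and 51.5, 37.6 and 56.7 in control arrays, a log2 difference of -0.77 ± 0.13 (limma adjusted p = 0.0377 over probe sets). The next one up had -0.31 (limma adjusted p = 0.0795) and the third 0.03, with means of 820 in knockout arrays and 794 in control arrays. Where in the gene these probes lie was not used here.

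Itgav, the alpha subunit shared by several receptors of vitronectin and of latent TGF-β, had an intensity of 6452, 5809 and 8277 in knockout arrays, against 8649, 7173 and 9342 in control arrays. Knockout 3 lay above control 2, so the groups overlapped. Its log2 difference was -0.30 ± 0.17 with a 95% interval of -0.76 to 0.16 (limma adjusted p = 0.309). A second Itgav probe set had means of 199 in knockout arrays and 197 in control arrays, and its 3 other probe sets were at the floor in all arrays. Itga8, the nephronectin receptor subunit, read 4.51 to 4.55 in knockout arrays and 4.49 to 4.53 in control arrays.

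Of the receptors of VCAM-1 and fibronectin, Itga9 fell and Itga4 did not pass, and the difference between these genes was not tested. Itga9 had an intensity of 94.4, 194 and 94.97 in knockout arrays, against 554, 596 and 551 in control arrays. All knockout arrays were below all control arrays, and knockout 2 was the highest of the knockouts. The log2 difference was -2.09 ± 0.29 with a 95% interval of -2.84 to -1.34 (limma adjusted p = 0.0195), and the control mean was 4.44 times the knockout mean.

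The other Itga9 probe sets pointed the same way, again without overlap. One read 29.8, 52.7 and 20.7 in knockout arrays and 77.6, 104 and 106 in control arrays, a log2 difference of -1.19 ± 0.27 (limma adjusted p = 0.0648 over probe sets). The dimmest read 9.46, 9.47 and 4.53 in knockout arrays and 52.2, 106 and 51.1 in control arrays (limma adjusted p = 0.0304 over probe sets). All its knockout arrays were under the floor, which makes it at least 4.35-fold lower.

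The log2 difference of Itga9 ran from -2.40 to -1.93 with each array left out, but its call did not hold each time. It held without knockout 2 or knockout 3 and ended without control 1 (limma adjusted p = 0.0921), control 2 (0.0601), control 3 (0.0923) or knockout 1 (0.077). In these bulk samples, fewer cells of a type and less RNA per cell cannot be told apart. Of 5 measured lymphatic endothelial markers, Flt4 fell like Itga9, and its part in the Itga9 difference was not tested. The summed intensity of the 5 was 20040 to 20380 in knockout arrays and 25110 to 26650 in control arrays, from Flt4 and from Lyve1, which did not pass, while Prox1, Pdpn and Reln were at the floor in all arrays.

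Itga4, which pairs with β1 or β7, had an intensity of 622, 498 and 1416 in knockout arrays, against 941, 512 and 1134 in control arrays. Knockout 3 was the highest of all arrays and control 2 close to knockout 2. The log2 difference was -0.10 ± 0.52 with a 95% interval of -1.47 to 1.26 (limma adjusted p = 0.913). Its other probe sets had log2 differences of 0.70, 0.07, 0.0039 and -0.69, none of which passed, so neither a direction nor its absence can be read for Itga4.

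Itga1, Itga4 and Itgav shared the same order of arrays within each group. In log2 deviation from the group mean, knockout 3 stood at 1.26, 0.88 and 0.29 for Itga1, Itga4 and Itgav. Control 2 stood at -0.82, -0.66 and -0.22 for the same genes. For Itga6 too, knockout 3 was the highest knockout array (0.0869) and control 2 the lowest control array (-0.0549). Over all genes tested, such deviations correlated at -0.891 between knockout 3 and control 2 and at 0.805 between knockout 3 and control 3. The pattern is therefore not particular to these subunits. Itga9 was ordered differently, with knockout 2 at 0.62 and, among the controls, control 2 farthest from the mean at 0.07.

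The level of the bioB and bioC spike-in controls, RNA of known amount added to every array, also differed between arrays. Its mean log2 intensity was 11.02, 11.07 and 10.85 in knockout arrays and 10.64, 10.87 and 10.76 in control arrays. Knockout 1 and knockout 2 lay above every control array. A fit with this level as a covariate therefore cannot fully separate it from the group difference. In that fit the log2 difference became 0.78 for Itga1, 1.04 for Itga4 and 0.08 for Itgav, none of them called. It became -0.14 for Itga6, 0.12 for Itga3 and -0.40 for Itga7, also not called, and the Itga6 call was lost (limma adjusted p = 0.136). Itga9 kept its sign at -2.48 and lost its call (limma adjusted p = 0.0718). The 3′ to 5′ ratio of β-actin, a measure of RNA integrity, was 1.42 to 1.49 in knockout arrays and 1.45 to 1.59 in control arrays. What sets this order of the arrays was not tested.

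**Figure D3:**
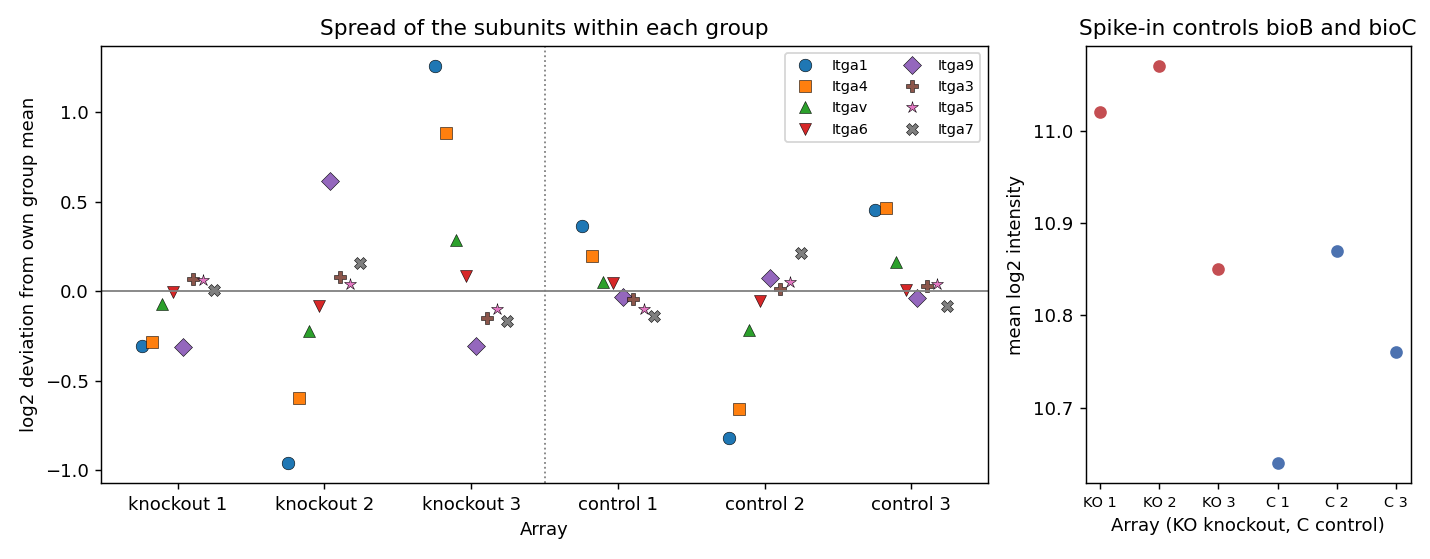
Left, log2 deviation of 8 alpha subunits from the mean of their own group in each array, knockout arrays first. Right, the mean log2 intensity of the spike-in controls. Itga1 and Itga4 are highest in knockout 3 (1.26 and 0.88) and lowest in knockout 2 and control 2, and the spike-in level is lower in knockout 3 than in the other knockout arrays.

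By Pearson correlation over the 6 arrays on the log2 scale, the genes most like Itga6 were Yaf2 (r = 0.998), Abhd17b (r = 0.998) and Hsdl2 (r = 0.997). Those most like Itga9 were Map6 (r = 0.999), Ppp2r5a (r = 0.999) and Ypel3 (r = 0.998). The arrays fall into 2 groups, so a gene that is clearly lower in knockout arrays tends to score high. In all, 376 genes exceeded r = 0.95 with Itga6 and 329 with Itga9.

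Beta subunits, ligands and cytoplasmic partners were read from lists of 85 genes, of which 77 had a probe set naming them alone and 55 were tested. Of the 55, 7 rose, 9 fell and 39 did not pass, against 8.63% higher and 5.07% lower among all genes. Their median log2 difference was 0.0085, against 0.0071 over all genes. The lists were chosen with earlier results of these data known. Of the 55, 46 were over 16 in all arrays, unlike many of all genes tested. No more is therefore read from these counts. Leaving out control 1, 2 or 3 left 5, 7 and 4 of the 16 main calls in place, and leaving out knockout 1, 2 or 3 left 4, 8 and 14. Lama4, Col5a1 and Vegfc stayed called each time, and the call of Fn1 ended only without knockout 1. Over 14 other settings the calls of Npnt and Tns3 held in 4 and 1, and those of the other 14 genes in 9 to 14. These settings include a fit with array weights, whose estimate did not converge and which was the 1 that kept Tns3. The genes of the lists without such a probe set were not analysed here.

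Of 6 tested beta subunits, Itgb2 fell and 5 did not pass. Itgb1, the partner of most of the alpha subunits described here, had an intensity of 15828, 11260 and 18446 in knockout arrays, against 19385, 19441 and 21685 in control arrays. The groups did not overlap, but the log2 difference of -0.44 ± 0.20 did not pass (limma adjusted p = 0.215). Itgb3, the main vascular partner of αv, was at 18411, 20361 and 18961 in knockout arrays and 19523, 19362 and 19444 in control arrays, with a log2 difference of -0.02 ± 0.04 (limma adjusted p = 0.866). Itgb1 and Itgb3, and below Lamb1, Lamc1, Col4a1, Col4a2, Tnc and Tln1, fall outside the naming rule and were chosen after their values were seen.

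Itgb2, the beta subunit of leukocyte integrins, had an intensity of 118, 132 and 73.2 in knockout arrays, against 328, 369 and 376 in control arrays (log2 difference -1.62 ± 0.21, limma adjusted p = 0.018). Of the 8 other alpha subunits 2 were tested and neither passed (limma, 0 called, 1 at an unadjusted p under 0.05). Itgax, which pairs with β2, had a log2 difference of -0.86 ± 0.24 (limma adjusted p = 0.082), and Itgae was at the floor in all arrays. The leukocyte sum given above moved the same way as Itgb2. Its part in the difference was not tested, and the pan-leukocyte marker Ptprc was at the floor.

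Of 8 tested ligands of RGD receptors, 4 fell and 2 rose. Fn1, fibronectin, had an intensity of 1499, 1488 and 1416 in knockout arrays, against 2934, 3620 and 3942 in control arrays (log2 difference -1.23 ± 0.12, limma adjusted p = 0.0102). Its control mean was 2.38 times the knockout mean and the groups were far apart. Tgfb1 and Tgfb3, whose latent forms bind αv integrins, fell by 0.64 ± 0.13 and 1.63 ± 0.30 on the log2 scale (limma adjusted p = 0.0425 and adjusted p = 0.0349). Npnt, nephronectin, the ligand of α8, had a log2 difference of -0.79 ± 0.17 just past the threshold (limma adjusted p = 0.0471), a call that held in 4 of 14 other settings and in 0 of 6 with an array left out. Ccn1 and Ccn2, matricellular proteins that bind αv integrins, rose by 0.97 ± 0.09 and 0.34 ± 0.04 (limma adjusted p = 0.00908 and adjusted p = 0.0144).

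Laminin chains went both ways, with 2 of 5 tested higher and 1 lower. Lama4, the α4 chain of endothelial laminin, had an intensity of 9538, 9888 and 10155 in knockout arrays, against 592, 796 and 708 in control arrays (log2 difference 3.80 ± 0.12, limma adjusted p = 0.000935). Lama5, the α5 chain, the other endothelial laminin alpha chain, was at 2815, 3192 and 3027 in knockout arrays and 4754, 6548 and 6401 in control arrays (log2 difference -0.95 ± 0.15, limma adjusted p = 0.0245). The 2 chains therefore stood in opposite directions, each without overlap between groups. Lamb2 rose by 0.86 ± 0.17 (limma adjusted p = 0.0413), while Lamb1 and Lamc1 had log2 differences of 0.03 and 0.09 and did not pass.

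Among 5 tested collagen chains, Col5a1 fell and 4 did not pass. Col5a1, of fibrillar type V collagen, read 15.7, 16.7 and 10.97 in knockout arrays and 433, 603 and 503 in control arrays (limma adjusted p = 0.00128). Knockout 1 and knockout 3 were under the floor and knockout 2 was just over it, so the size of the difference is not given. The basement membrane chains Col4a1 and Col4a2 were bright, with log2 differences of -0.02 ± 0.02 and -0.05 ± 0.04 that did not pass (limma adjusted p = 0.538 and adjusted p = 0.446).

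The list of further ligands of α4 or α9 had 1 gene higher and 1 lower among 3 tested. Fibronectin, also bound by both, is counted above with the RGD ligands. Vcam1, a ligand of both subunits, had an intensity of 1826, 1313 and 1194 in knockout arrays, against 521, 563 and 600 in control arrays (log2 difference 1.32 ± 0.18, limma adjusted p = 0.0191). Vegfc, a growth factor that α9β1 binds, had an intensity of 1385, 1532 and 1368 in knockout arrays, against 3381, 3124 and 3521 in control arrays (log2 difference -1.22 ± 0.07, limma adjusted p = 0.00316). Tnc, tenascin-C, had a log2 difference of 0.15 ± 0.09 and did not pass (limma adjusted p = 0.319).

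Of 22 tested activators and adaptors, 2 rose, 1 fell and 19 did not pass. Lims2 (PINCH-2), an adaptor that binds integrin-linked kinase, had an intensity of 2211, 2602 and 1736 in knockout arrays, against 4406, 5219 and 4838 in control arrays (log2 difference -1.15 ± 0.17, limma adjusted p = 0.0223). Parva, an adaptor at focal adhesions, rose by 0.17 ± 0.03 (limma adjusted p = 0.0318). Tns3, another focal adhesion adaptor, had a log2 difference of 0.18 ± 0.04 just past the threshold (limma adjusted p = 0.0486), a call that held in 1 of 14 other settings and in 0 of 6 with an array left out. Tln1, talin, had 0.04 ± 0.05 and did not pass. None of the 4 tested inhibitors of activation was called by limma (0 also at an unadjusted p under 0.05), the smallest p-values being those of Dok1 (log2 difference 0.79, limma adjusted p = 0.156) and Flna (0.11, limma adjusted p = 0.213).

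**Figure D4:**
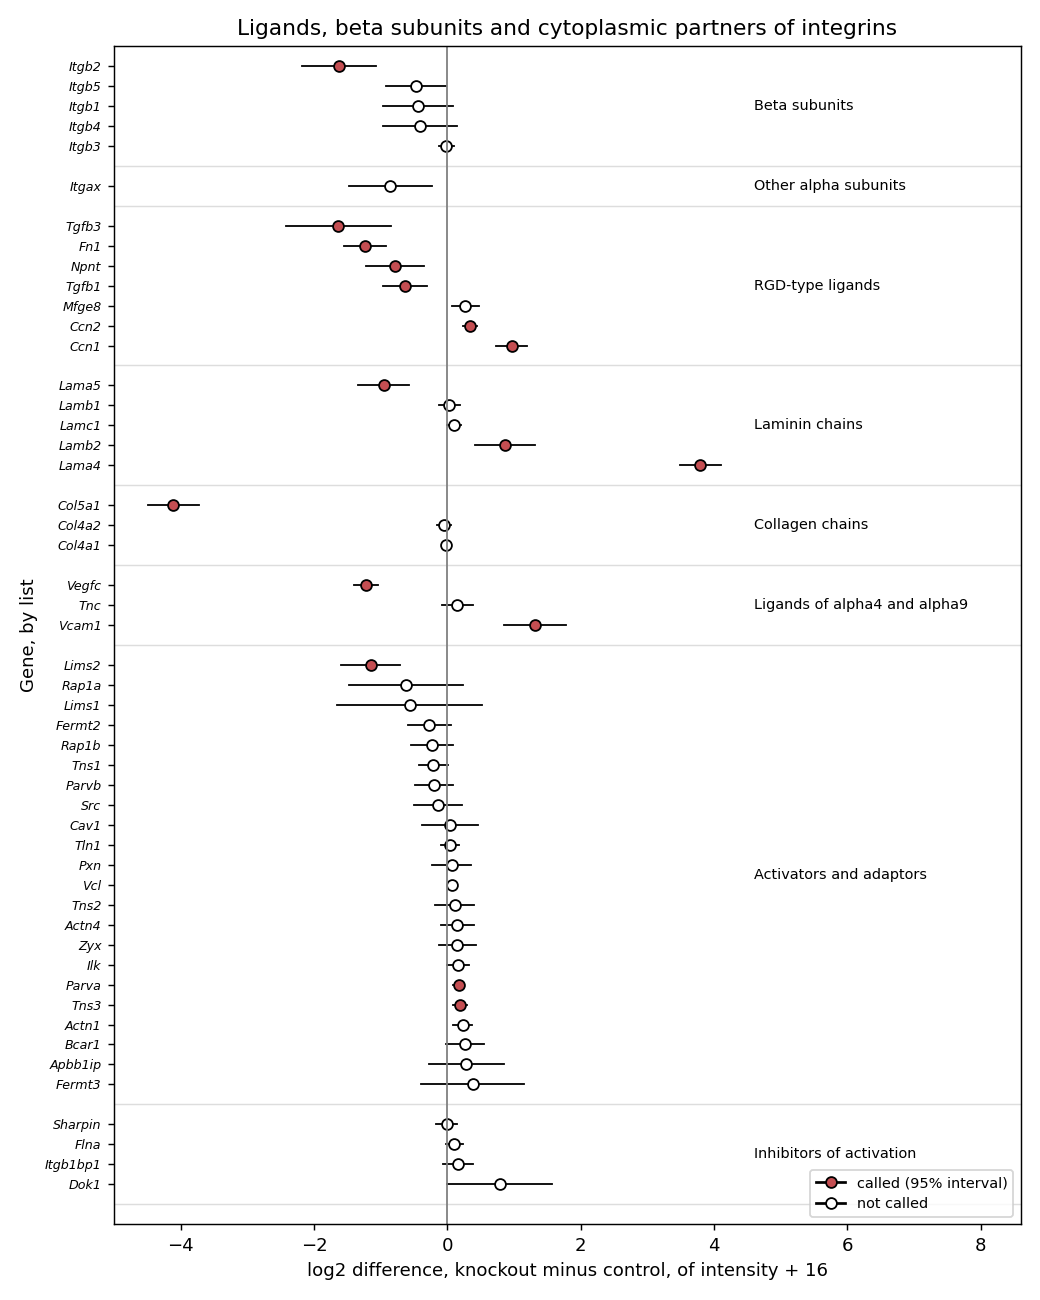
log2 difference, knockout minus control, of intensity + 16 with 95% intervals for the tested partner genes by list, filled where called, leaving out genes at the floor in all arrays. Lama4 lies at 3.80, Col5a1, with 2 of 3 knockout arrays under the floor, has no exact size, and most activators and adaptors lie close to 0.

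**Figure D5:**
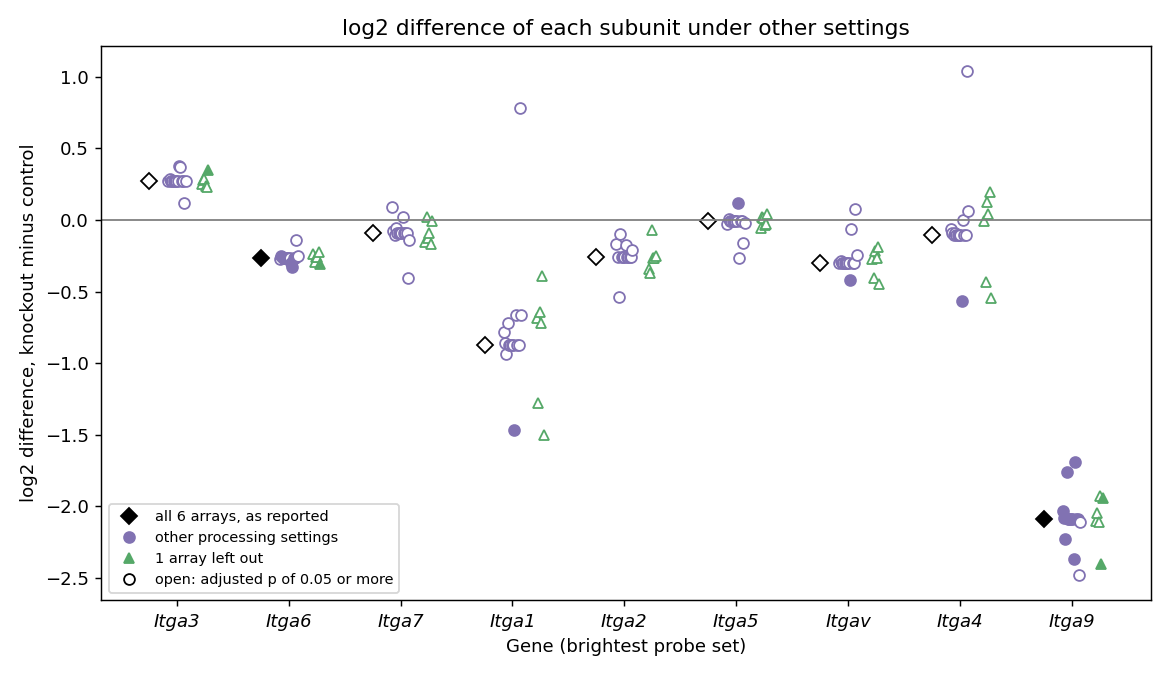
log2 difference of each alpha subunit (knockout minus control) with all 6 arrays, under other processing settings and with 1 array left out, filled where the adjusted p is under 0.05. Itga9 stays between -2.48 and -1.69 throughout, whereas Itga1 and Itga4 range across 0.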

How the data were processed

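Affymetrix mouse arrays were hybridised with amplified, biotin-labelled total RNA, per the labels' protocols. The deposited table holds 1 linear intensity per probe set and array. MAS5 and GCRMA are both named, per the submitters' processing notes, with no step given for either, and no further scaling was applied. Dim probe sets lie at nearly 1 value in all arrays, which narrows their spread. Of 45101 probe sets, 64 array controls were set aside, 34945 named 1 gene in the platform annotation, 932 named several and 9160 had no listed gene.

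Probe sets in the lowest 40% by mean intensity were left out, which left 27022 and, at 1 probe set per gene, 12277 genes. Values were taken as log2(intensity + 16), which understates changes of dim genes, and fitted with limma 3.58.1 in R 4.3.3 (lmFit, eBayes, two-sided, Benjamini-Hochberg, threshold 0.05). The fit was run on simulated data with independent noise. The genes of these arrays share deviations within groups, so that run does not test the error rate here. Values over groups are means ± SD or single arrays, and differences carry SE. A signal under 16 was taken as the floor. No interval for counting error applies to arrays, and their number limits the precision.

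Alternatives covered scaling, pseudocount, filter, eBayes options, array weights, probe set choice, covariates and each array left out. Named were all members, every called partner gene, the 2 with the smallest p of a list without a call, and the 3 genes most like each called member. Epas1, Hif1a, Arnt and cell type markers served as checks. Partner genes outside this rule are listed in the text. Members, lists and alternatives were chosen with earlier results of these data known. Figures were drawn with matplotlib 3.10.9.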

Additional observations from a re-analysis of the deposited data

How the results depend on the processing

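Itga9 kept its sign in all 20 alternatives and its call in 14 of them, and Itga6 kept its sign in all 20 and its call in 8. Both tallies of calls include the fit with array weights, whose estimate did not converge, so it adds nothing to them. The cause of the changes below was not tested. With each array left out in turn, called genes ranged from 207 (without control 1) to 3008 (without knockout 3), alpha subunits called from 0 to 3 and partner genes called from 4 to 18. In the 4 such limma fits with 0 alpha subunits called, 2 to 3 had an unadjusted p under 0.05. Over the same fits the log2 difference ranged from -2.40 to -1.93 for Itga9, -0.31 to -0.22 for Itga6, 0.23 to 0.35 for Itga3, -0.54 to 0.20 for Itga4, -0.0544 to 0.0444 for Itga5, -0.17 to 0.0196 for Itga7, -1.50 to -0.39 for Itga1 and -0.45 to -0.19 for Itgav, and the Itga2 difference, near the floor, from -0.37 to -0.07.

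The Itga6 call ended, at 1 alpha subunit called, with quantile normalization (-0.27), no filter, a stricter filter on dim probe sets, robust eBayes and adjustment over probe sets (-0.26 in each). Called genes numbered 883 with no filter. Itga7 turned to 0.0927 with quantile normalization and Itga5 to 0.0067 with 75th percentile scaling. Array weights, whose estimate did not converge, gave 8541 called genes, 7 alpha subunits and 43 partner genes, with log2 differences of -1.47 for Itga1, 0.37 for Itga3, -0.57 for Itga4, 0.12 for Itga5, 0.0191 for Itga7 and -0.42 for Itgav. With a covariate for spike-in level, which overlaps in part with group, 445 genes, 0 alpha subunits (limma, 4 at an unadjusted p under 0.05) and 9 partner genes were called. The log2 differences were then 0.78 for Itga1, 1.04 for Itga4, 0.0752 for Itgav, 0.12 for Itga3, -0.40 for Itga7, -0.14 for Itga6 and -2.48 for Itga9. With controls 1 and 3, which differ less than any other pair (0.137), averaged into 1 sample, 194 genes, 0 alpha subunits (limma, 3 at an unadjusted p under 0.05) and 4 partner genes were called, with -2.11 for Itga9, -0.25 for Itga6 and 0.0622 for Itga4.

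With the replicate block 2995 genes were called, and the same 2 alpha subunits. The array numbers share no stated source, and deviations of same-numbered arrays from their group means correlated at -0.466, 0.845 and 0.805, with 2 of 3 knockout arrays closest to the control of their number.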

Other observations

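In the RefSeq gene order (GRCm38.p6), 4 of the 10 alpha subunit genes lie on mouse chromosome 2 (Itga4, Itga6, Itga8 and Itgav) and 2 on chromosome 13. Those 2, Itga1 and Itga2, encode the collagen receptor subunits and have 1 annotated gene between them, a long noncoding RNA. Itga1 was over 16 in all 6 arrays, whereas Itga2 was under 16 in all 3 knockout arrays and in 2 of 3 control arrays. On chromosome 2, Itga8 was at the floor in all arrays, Itga6 fell, and Itga4 and Itgav did not pass.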
